A study of Mus musculus with 4 samples.

Results

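Dermal fat is the layer of white fat cells that lies beneath the dermis and surrounds the lower ends of growing hair follicles. The set described here holds 33 genes that fat cells use for storing, releasing and signalling about fat. It was taken by gene symbol from a list of adipocyte genes, without a rule on measured values, and all 33 were found among the 25571 genes of the deposited table. These genes, and the other lists set beside them below, were chosen with earlier results of these data known. RNA came from mouse skin in 4 groups, with 1 library in each. PRP-MNs skin is labelled for microneedles with platelet-rich plasma, PRP skin for platelet-rich plasma alone, MNs skin for microneedles alone, and NC, which the labels do not spell out, served as the reference. Platelet-rich plasma is a platelet concentrate of blood, and microneedles are arrays of fine needles that pierce the outer skin. Strain, age, sex, time of harvest, body site and the number of animals behind a library are not given in the sources used here.

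A fat cell keeps triglyceride in a single large droplet whose surface is coated by perilipins and CIDE proteins. Lipases at that surface release fatty acids when adrenergic signals raise cyclic AMP, and insulin opposes this release. The nuclear receptor PPAR gamma and the factor C/EBP alpha drive the making of fat cells and keep many of the genes below active. In mouse skin the fat layer thickens as hair follicles grow and thins as they rest, and its cells take part in responses to injury and infection. Many of these genes are also used elsewhere in skin, such as in sebaceous glands, macrophages, vessels and the thin muscle under the dermis.

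Values are FPKM, in which fragments are divided by transcript length and by library depth, so levels can be compared between genes. From the steps between low values, depth was put at about 17.2 M fragments for PRP-MNs skin, 15.9 M for PRP skin, 18.6 M for MNs skin and 19.4 M for NC skin, and a smaller step also recurs at which depth would be about 2 times as large. Differences are log2 ratios of FPKM + 1, which understate the change of low genes, and a gene counted as measured in a comparison if either of its libraries held 1 FPKM or more. With 1 library per group there is no replicate check and no p-value, and each value describes a library. Of the 33 genes, 32 reached 1 FPKM in at least 1 library. The skin libraries held epidermal genes, with the basal keratin Krt14 between 2055 and 3966 FPKM, fibroblast genes, with Dcn between 311 and 1484 FPKM, and fat cell genes, with Adipoq, Plin1 and Cidec above 10 FPKM throughout. In bulk skin, more fat cells, more RNA per fat cell and less RNA from other layers cannot be told apart. The summed level of 12 epidermal genes was highest in NC skin, at 20272 FPKM, and lowest in PRP-MNs skin, at 4424 FPKM. Its part in the levels of the fat cell genes was not tested.

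Promoter sequences from RefSeq on GRCm38.p6 are shown for 3 genes that stand for the 3 patterns described below. Adipoq was higher in each treated library than in NC, Acacb was highest in MNs, and Cebpa was highest in NC. Each sequence is the 250 bases before an annotated start, and capitals mark the CCAAT box (CCAAT) and the TATA box (TATAAA) on either strand. The start used for Acacb lies inside the gene, which begins at 114146535 in GENCODE, and the bases before that position were not searched.
Adipoq, chr16:23146286-23146535, plus strand: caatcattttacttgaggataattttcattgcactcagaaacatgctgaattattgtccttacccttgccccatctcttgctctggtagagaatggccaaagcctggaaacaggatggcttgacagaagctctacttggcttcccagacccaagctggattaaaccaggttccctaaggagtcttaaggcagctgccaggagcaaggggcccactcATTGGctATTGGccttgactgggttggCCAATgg
Acacb, chr5:114165268-114165517, plus strand: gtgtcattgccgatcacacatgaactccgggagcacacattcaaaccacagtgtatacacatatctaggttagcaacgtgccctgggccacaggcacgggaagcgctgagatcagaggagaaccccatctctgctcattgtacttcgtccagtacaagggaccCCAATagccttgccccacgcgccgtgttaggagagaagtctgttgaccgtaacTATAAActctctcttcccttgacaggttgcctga
Cebpa, chr7:35119043-35119292, plus strand: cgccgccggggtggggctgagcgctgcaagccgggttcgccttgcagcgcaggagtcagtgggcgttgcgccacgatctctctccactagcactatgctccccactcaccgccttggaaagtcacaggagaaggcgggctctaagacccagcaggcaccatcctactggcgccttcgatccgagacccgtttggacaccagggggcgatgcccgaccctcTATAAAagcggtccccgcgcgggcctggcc

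The table of promoters matched 23 of the 33 genes, with 30 annotated starts. The repeat read by PPAR gamma with its partner RXR was searched on both strands as AGGNCANAGGNCA, and a C/EBP element as TTGCNNCAA. Neither set of letters lay in any of these 30 windows, and they lay in 0.338% and 1.74% of 32851 mouse promoters of the same length. At shares this low, 30 windows of any genes would often hold none, so this absence does not set these genes apart. Absence from this window says nothing of sites elsewhere. The CCAAT box lay in 6 of the 30 windows (of Acacb, Adipoq, Cd36, Plin4 and Pparg), or 20.0%, and in 33.9% of all promoters. The TATA box lay in 3 of the 30 (of Acacb, Cebpa and Pparg) and in 12.4% of all promoters.

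More of the fat cell genes were highest in MNs, and more were lowest in NC, than in any other library, and 14 of 32 were both. Of the 32 genes that reached 1 FPKM, 20 were highest in MNs, and 4 each were highest in PRP-MNs, in PRP and in NC. The lowest library was NC for 19 genes, PRP-MNs for 12 and PRP for 1, the leptin gene. The 19 genes lowest in NC were therefore higher in each treated library, and 4 genes (Lgals12, Dgat2, Cebpa and Nnat) were lower in each treated library than in NC. The 3 treated libraries share the same NC library, so a peculiarity of that library would show in each of these comparisons. These orders were not counted over all genes, so whether they are particular to the fat cell genes is not known. The median log2 difference of all genes from NC was 0.14 in PRP-MNs, 0.04 in PRP and 0.16 in MNs.

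**Figure D1:**
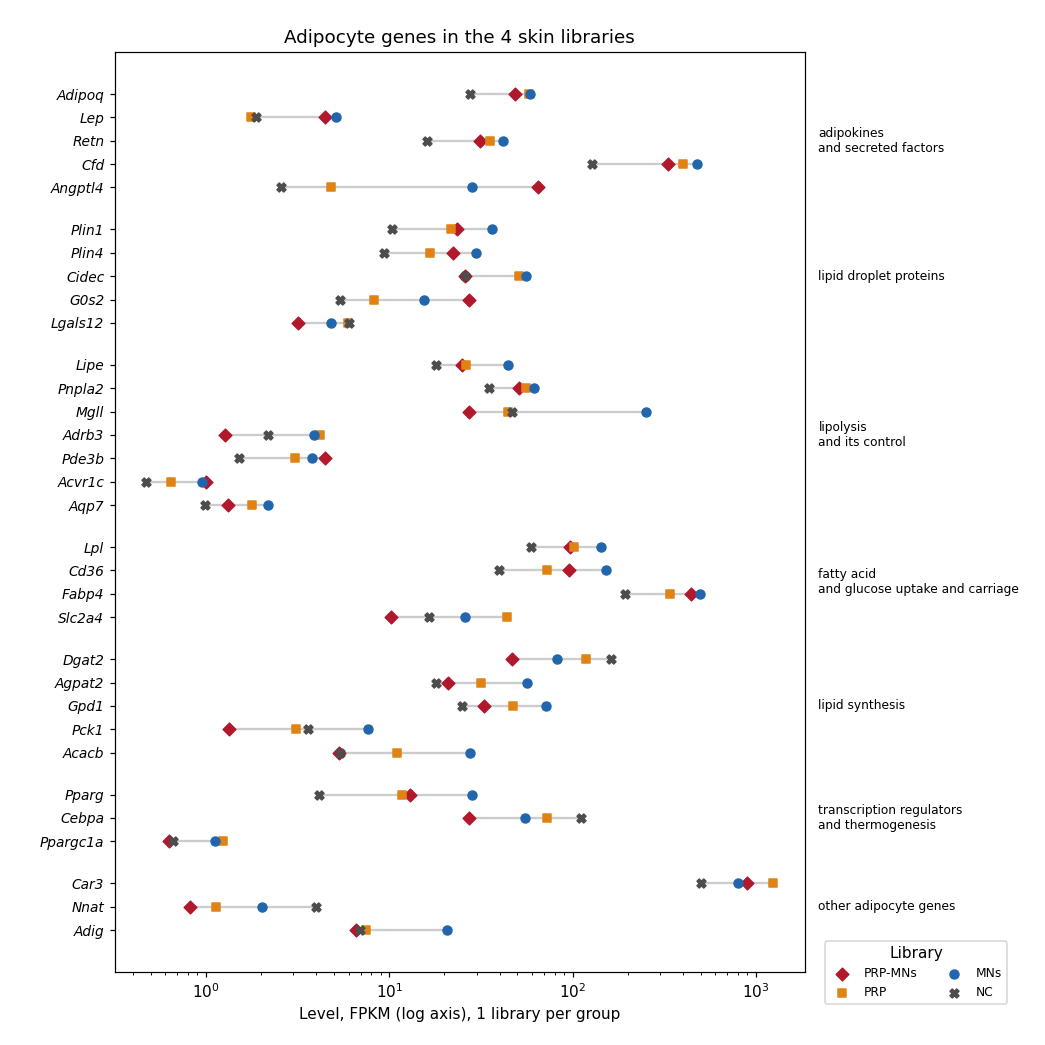
Level in FPKM (log axis) of 32 adipocyte genes in the libraries PRP-MNs, PRP, MNs and NC, grouped by role, with 1 point per library and a grey line from the lowest to the highest. Ucp1 is left out because it was listed at 0 in PRP-MNs. NC is the leftmost point for 19 genes and MNs the rightmost for 20, and such orders were not counted over all genes.

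Adipokines are the hormones and secreted factors of fat, and adiponectin, resistin and adipsin shared 1 order of libraries. Adiponectin (Adipoq, ENSMUSG00000022878, chromosome 16 from 23146536 to 23158028), a hormone that raises insulin sensitivity and is made almost only by fat cells, was at 48.8 FPKM in PRP-MNs skin, 58.3 FPKM in PRP skin and 58.5 FPKM in MNs skin, against 27.5 FPKM in NC skin. Resistin (Retn), a small peptide that in mice is secreted mainly by fat cells, was at 31.3 FPKM in PRP-MNs skin, 35.5 FPKM in PRP skin and 42.0 FPKM in MNs skin, against 16.0 FPKM in NC skin. Adipsin (Cfd), a serine protease that activates complement factor B, was at 332 FPKM in PRP-MNs skin, 401 FPKM in PRP skin and 479 FPKM in MNs skin, against 128 FPKM in NC skin. That order was MNs above PRP above PRP-MNs above NC, although for adiponectin MNs and PRP were nearly equal. Lipe, Pnpla2, Aqp7, Lpl, Agpat2 and Gpd1 had the same order, so it is not particular to secreted factors.

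Leptin (Lep), the hormone that reports the size of fat stores, had another order. It was at 4.47 FPKM in PRP-MNs skin, 1.76 FPKM in PRP skin and 5.10 FPKM in MNs skin, against 1.88 FPKM in NC skin. Both libraries with microneedles were above both without, whereas adiponectin in PRP was about as high as in MNs. Within a library, leptin stood at 0.0916 of the adiponectin level in PRP-MNs, 0.0301 in PRP and 0.0871 in MNs, against 0.0684 in NC.

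Angptl4 showed the widest range among the secreted factors. It encodes an inhibitor of lipoprotein lipase that fasting, PPAR signalling and low oxygen are known to induce. The gene (ENSMUSG00000002289, chromosome 17 from 33773750 to 33781830) was at 65.1 FPKM in PRP-MNs skin, 4.83 FPKM in PRP skin and 28.4 FPKM in MNs skin, against 2.58 FPKM in NC skin. The log2 difference against NC was 4.21 in PRP-MNs, 0.70 in PRP and 3.04 in MNs, so the 2 microneedle libraries stood apart from the other two. Its target Lpl, which frees fatty acids from lipoproteins in blood, was at 96.4 FPKM in PRP-MNs skin, 102 FPKM in PRP skin and 143 FPKM in MNs skin, against 59.7 FPKM in NC skin. The ratio of Angptl4 to Lpl within a library was 0.676 in PRP-MNs, 0.0473 in PRP and 0.199 in MNs, against 0.0433 in NC.

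Angptl4 is also expressed by macrophages and endothelial cells. Each of 12 listed macrophage genes was higher in each treated library than in NC, with a summed level of 2252 FPKM in PRP-MNs skin, 1082 FPKM in PRP skin and 1317 FPKM in MNs skin, against 339 FPKM in NC skin. The 12 listed endothelial genes, among them Pecam1, Cdh5 and Kdr, summed to 296 FPKM in PRP-MNs skin, 110.5 FPKM in PRP skin and 208 FPKM in MNs skin, against 38.7 FPKM in NC skin. No listed macrophage or endothelial gene was at 0 in any library. Their part in the levels of Angptl4 was not tested.

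The coat proteins of the lipid droplet were mostly higher in the treated libraries, with G0s2 and Cidec departing from perilipins in opposite directions. Perilipin 1 (Plin1, ENSMUSG00000030546, chromosome 7 from 79720218 to 79732903), which guards the droplet against lipases, was at 23.4 FPKM in PRP-MNs skin, 21.9 FPKM in PRP skin and 36.2 FPKM in MNs skin, against 10.4 FPKM in NC skin. Perilipin 4 (Plin4), found on small new droplets, was at 22.4 FPKM in PRP-MNs skin, 16.6 FPKM in PRP skin and 29.7 FPKM in MNs skin, against 9.33 FPKM in NC skin. Against NC both perilipins were at least 2-fold higher on the FPKM + 1 scale in PRP-MNs and in MNs (Plin1 in PRP-MNs was at 0.96 after centring on the median of all genes), and in PRP the log2 difference was 1.01 for Plin1 and 0.77 for Plin4. The exons of Plin4 overlap those of Hdgfl2 on the other strand, and whether strands were kept apart is not given, so its level is uncertain.

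Cidec, whose protein fuses small droplets into large ones, was at 26.1 FPKM in PRP-MNs skin, 51.0 FPKM in PRP skin and 56.0 FPKM in MNs skin, against 26.1 FPKM in NC skin. PRP-MNs thus stood at the level of NC for Cidec while Plin1 was 2.26 times as high as in NC. The ratio of Cidec to Plin1 was 1.12 in PRP-MNs, 2.33 in PRP and 1.55 in MNs, against 2.52 in NC. G0s2, which inhibits the first triglyceride lipase, was at 27.2 FPKM in PRP-MNs skin, 8.28 FPKM in PRP skin and 15.6 FPKM in MNs skin, against 5.36 FPKM in NC skin. Like Angptl4 it was highest in PRP-MNs, next in MNs and then in PRP. Galectin-12 (Lgals12), a droplet protein that restrains lipolysis, was at 3.17 FPKM in PRP-MNs skin, 5.97 FPKM in PRP skin and 4.81 FPKM in MNs skin, against 6.07 FPKM in NC skin.

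Of the 3 lipases that split triglyceride in sequence, Pnpla2 and Lipe differed by less than 2-fold between treated libraries and Mgll differed the most of the 33 genes between PRP-MNs and MNs. Pnpla2, the triglyceride lipase inhibited by G0s2, was at 51.4 FPKM in PRP-MNs skin, 55.7 FPKM in PRP skin and 61.5 FPKM in MNs skin, against 35.2 FPKM in NC skin. Hormone-sensitive lipase (Lipe), which splits diglyceride, was at 24.9 FPKM in PRP-MNs skin, 26.2 FPKM in PRP skin and 44.5 FPKM in MNs skin, against 17.9 FPKM in NC skin. Monoglyceride lipase (Mgll, ENSMUSG00000033174, chromosome 6 from 88724412 to 88828360), which completes the release and also degrades an endocannabinoid, was at 27.4 FPKM in PRP-MNs skin, 44.2 FPKM in PRP skin and 253 FPKM in MNs skin, against 47.0 FPKM in NC skin. MNs was the outlying library for Mgll, at 5.38 times the level of NC, and the other 3 lay within 27.4 to 47.0 FPKM. Exons of Mgll and of Lipe overlap those of a gene on the other strand, so their levels are uncertain, as for Plin4.

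Sebaceous glands, the oil glands of hair follicles, also process lipid, and their markers moved with Mgll. The 12 sebaceous genes had a summed level of 138 FPKM in PRP-MNs skin, 315 FPKM in PRP skin and 1748 FPKM in MNs skin, against 347 FPKM in NC skin. Of 11 measured sebaceous genes, 10 were at least 2-fold higher in MNs than in NC, where 15.7% of all genes were, and PRP-MNs was at least 2-fold below MNs for all 11, where 7.39% of all genes were. The wax synthesis gene Far2 was at 1.23 FPKM in PRP-MNs skin, 21.9 FPKM in PRP skin and 249 FPKM in MNs skin, against 22.5 FPKM in NC skin. Mogat1 was the listed sebaceous gene at 0 in NC. The part of sebaceous glands in the levels of Mgll, and of the lipid synthesis genes and Pparg below, was not tested.

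The regulators of lipolysis were expressed at low levels. Adrb3, the beta adrenergic receptor through which noradrenaline triggers lipolysis in mouse fat cells, was at 1.27 FPKM in PRP-MNs skin, 4.18 FPKM in PRP skin and 3.87 FPKM in MNs skin, against 2.19 FPKM in NC skin. Pde3b, the phosphodiesterase by which insulin lowers cyclic AMP, was at 4.45 FPKM in PRP-MNs skin, 3.07 FPKM in PRP skin and 3.79 FPKM in MNs skin, against 1.51 FPKM in NC skin. The receptor of the stimulating signal was thus lowest in PRP-MNs and the enzyme of the restraining signal highest there. Pde3b was above MNs in PRP-MNs by only 0.19 on the log2 scale. Exons of Adrb3, and of Acvr1c below, overlap those of a gene on the other strand, so their levels are uncertain. Aqp7, a channel through which glycerol leaves the fat cell, was at 1.31 FPKM in PRP-MNs skin, 1.80 FPKM in PRP skin and 2.19 FPKM in MNs skin, against 0.988 FPKM in NC skin. Acvr1c, an activin receptor of fat cells that lowers lipolysis in mice, was at 1.004 FPKM in PRP-MNs skin, 0.647 FPKM in PRP skin and 0.947 FPKM in MNs skin, against 0.473 FPKM in NC skin, and was measured against PRP, MNs and NC only through its PRP-MNs value.

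Fabp4 and Cd36, genes of fatty acid carriage and uptake, were higher in all 3 treated libraries than in NC, as Lpl was. Fabp4, the main fatty acid carrier inside fat cells, was at 445 FPKM in PRP-MNs skin, 340.3 FPKM in PRP skin and 493 FPKM in MNs skin, against 194 FPKM in NC skin. Cd36, a fatty acid transporter and scavenger receptor, was at 95.5 FPKM in PRP-MNs skin, 72.4 FPKM in PRP skin and 153 FPKM in MNs skin, against 39.6 FPKM in NC skin. Both are also found in capillary endothelium and macrophages, whose marker sums are given above, and the part of those cells was not tested. For both genes PRP-MNs lay above PRP, whereas for Lpl the 2 values were close.

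Slc2a4, the insulin-responsive glucose transporter of fat and muscle, had an order of libraries that Adrb3 and Ppargc1a shared. It was at 10.2 FPKM in PRP-MNs skin, 44.1 FPKM in PRP skin and 25.9 FPKM in MNs skin, against 16.5 FPKM in NC skin. PRP was the highest library and PRP-MNs the lowest, a log2 difference of −2.00 between them. Carbonic anhydrase 3 (Car3), abundant in fat and in slow muscle fibres, was at 896 FPKM in PRP-MNs skin, 1245 FPKM in PRP skin and 796 FPKM in MNs skin, against 502 FPKM in NC skin. Ppargc1a, a coactivator of mitochondrial genes, was at 0.627 FPKM in PRP-MNs skin, 1.24 FPKM in PRP skin and 1.12 FPKM in MNs skin, against 0.659 FPKM in NC skin. All 3 of these genes are known from muscle as well as fat and were highest in PRP.

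Skeletal muscle genes were also highest in PRP. The 12 listed muscle genes, among them Acta1, Ckm and Myh4, summed to 11290 FPKM in PRP-MNs skin, 14464 FPKM in PRP skin and 7846 FPKM in MNs skin, against 8249 FPKM in NC skin. Their median log2 difference was 0.85 between PRP and NC and −0.67 between PRP-MNs and PRP. The order below PRP differed: the muscle sum was lowest in MNs, whereas Slc2a4 and Ppargc1a were lowest in PRP-MNs and Car3 in NC. No listed muscle gene was at 0 in any library, and the part of muscle in the levels of Slc2a4, Car3 and Ppargc1a was not tested.

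The genes of lipid synthesis had the lowest median between PRP-MNs and MNs among the 7 role groups, at −1.38. All 5 were lower in PRP-MNs than in MNs, and 4 of them at least 2-fold, where 7.39% of all genes were. Acacb, a carboxylase that makes the malonyl-CoA which restrains fatty acid oxidation, was at 5.35 FPKM in PRP-MNs skin, 11.05 FPKM in PRP skin and 27.7 FPKM in MNs skin, against 5.40 FPKM in NC skin. Agpat2, which adds the second fatty acid to glycerol phosphate, was at 20.99 FPKM in PRP-MNs skin, 31.6 FPKM in PRP skin and 56.2 FPKM in MNs skin, against 17.9 FPKM in NC skin. Its exons overlap those of the endothelial gene Egfl7 on the other strand, so its level is uncertain. Gpd1, which supplies glycerol phosphate from glucose breakdown, was at 32.96 FPKM in PRP-MNs skin, 47.2 FPKM in PRP skin and 71.7 FPKM in MNs skin, against 25.01 FPKM in NC skin.

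Pck1, which in fat serves the making of glycerol phosphate without glucose, was at 1.34 FPKM in PRP-MNs skin, 3.10 FPKM in PRP skin and 7.68 FPKM in MNs skin, against 3.61 FPKM in NC skin. For Acacb, Agpat2, Gpd1 and Pck1 alike, MNs was the highest library and PRP the higher of PRP-MNs and PRP. Dgat2, which makes triglyceride from diglyceride, was highest in NC instead, at 46.7 FPKM in PRP-MNs skin, 118 FPKM in PRP skin and 82.5 FPKM in MNs skin, against 162 FPKM in NC skin. It was at least 2-fold lower in PRP-MNs than in NC.

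Among the regulators, the 2 main factors of fat cell identity stood on opposite sides of NC. Pparg (ENSMUSG00000000440, chromosome 6 from 115360951 to 115490399) was at 13.02 FPKM in PRP-MNs skin, 11.8 FPKM in PRP skin and 28.1 FPKM in MNs skin, against 4.12 FPKM in NC skin. Cebpa (ENSMUSG00000034957, chromosome 7 from 35119293 to 35121928) was at 27.3 FPKM in PRP-MNs skin, 72.1 FPKM in PRP skin and 55.1 FPKM in MNs skin, against 111 FPKM in NC skin. Pparg was at least 2-fold higher in each treated library than in NC, and Cebpa was lower in each, by 1.98 on the log2 scale in PRP-MNs. Exons of Cebpa overlap those of a gene on the other strand, so its level is uncertain.

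Cebpa is also expressed in differentiating epidermis and in sebaceous glands, and Dgat2 in epidermis and liver. All 12 epidermal genes were lower in PRP-MNs and in PRP than in NC, and 11 of the 12 in MNs, with sums of 4424 FPKM in PRP-MNs skin, 14176 FPKM in PRP skin and 8573 FPKM in MNs skin, against 20272 FPKM in NC skin. The suprabasal keratin Krt10 was at 475 FPKM in PRP-MNs skin, 3428 FPKM in PRP skin and 1079 FPKM in MNs skin, against 6056 FPKM in NC skin. NC was the highest library and PRP-MNs the lowest for Krt10, Cebpa and Dgat2 alike, and the part of the epidermis in the levels of Cebpa and Dgat2 was not tested.

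The uncoupling protein gene Ucp1, which defines brown and beige fat, was listed at 0 in PRP-MNs and was at 0.0813 FPKM in PRP skin, 0.0313 FPKM in MNs skin and 0.0617 FPKM in NC skin. On its single annotated transcript of 1636 bases these are about 1 or 2 fragments at the smaller depth, and 3 fragments would be 0.106 FPKM in PRP-MNs skin, 0.115 FPKM in PRP skin, 0.0987 FPKM in MNs skin and 0.0948 FPKM in NC skin, counting error only. No library rose above that limit. At the larger depth that the smaller step gives, the limit would be 0.0533 FPKM in PRP-MNs skin, 0.0577 FPKM in PRP skin, 0.0494 FPKM in MNs skin and 0.0475 FPKM in NC skin, and PRP and NC would lie above it, so whether Ucp1 was detected rests on the depth estimate. Of the other genes listed for brown and beige fat, Cidea and Elovl3 differed most between MNs and NC, and both are sebaceous genes as well.

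The remaining fat cell genes moved apart from each other. Adig, which encodes the small membrane protein adipogenin, was at 6.62 FPKM in PRP-MNs skin, 7.46 FPKM in PRP skin and 20.7 FPKM in MNs skin, against 6.92 FPKM in NC skin. MNs alone stood out for Adig, as it did for Mgll. Nnat, an imprinted gene of brain and fat cells, was at 0.816 FPKM in PRP-MNs skin, 1.14 FPKM in PRP skin and 2.03 FPKM in MNs skin, against 4.005 FPKM in NC skin.

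PRP-MNs skin was compared with NC to ask how the combined treatment differed from the reference. Of 31 measured genes, 9 were at least 2-fold higher, where 17.6% of all 13981 genes tested were, and 3 at least 2-fold lower, where 11.5% of all genes were. The 9 were Angptl4, G0s2, Pparg, Cfd, Cd36, Fabp4, Plin4, Pde3b and Plin1, and the 3 were Cebpa, Dgat2 and Nnat. Nnat passed the filter of 1 FPKM only through NC, where it was high. The share was 29.0% higher and 9.68% lower, and the median was 0.45 beside 0.14 for all genes. After centring on the all-gene median, 7 were higher and 4 lower: Plin1 (0.96) and Pde3b (0.98) fell short and Pck1 (−1.12) was added.

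PRP skin was compared with NC to ask what plasma without needles showed. Of 31 measured genes, 7 were at least 2-fold higher, where 7.78% of 13533 genes were, and 1 at least 2-fold lower, where 1.46% were. The 7 were Cfd, Slc2a4, Pparg, Car3, Retn, Adipoq and Plin1, and the gene that fell was Nnat. The differences were narrow, with the middle 50% of genes between 0.26 and 0.93 and a median of 0.70, beside 0.04 for all genes. Plin1 was at 0.97 after centring.

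MNs skin was compared with NC to ask what needles without plasma showed. It held the most fat cell genes at least 2-fold higher, 19 of 31, where 15.7% of 13925 genes were. No measured gene was at least 2-fold lower, where 7.12% were. The median was 1.25, beside 0.16 for all genes. The 12 fibroblast and matrix genes moved with it. In MNs against NC 11 were at least 2-fold higher (median 2.62), where 15.7% of all genes were. PRP-MNs lay at least 2-fold below MNs for 8 (median −1.94), where 7.39% of all genes were. None of the 12 was at 0 in any library. Their sum was 1257 FPKM in PRP-MNs skin, 2086 FPKM in PRP skin and 7728 FPKM in MNs skin, against 1026 FPKM in NC skin, and their part in the fat cell genes was not tested. Among fat cell genes the largest were Angptl4 at 3.04, Pparg at 2.51, Mgll at 2.40 and Acacb at 2.16, and Cebpa at −0.995 and Dgat2 at −0.97 were lowest. After centring on the all-gene median, 16 were higher, without Adipoq (0.90), Lep (0.92) and Cidec (0.91), and 2 were lower, Cebpa (−1.16) and Dgat2 (−1.13). Over all genes, centring gave 1729 higher and 1261 lower in place of 2188 and 991.

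**Figure D2:**
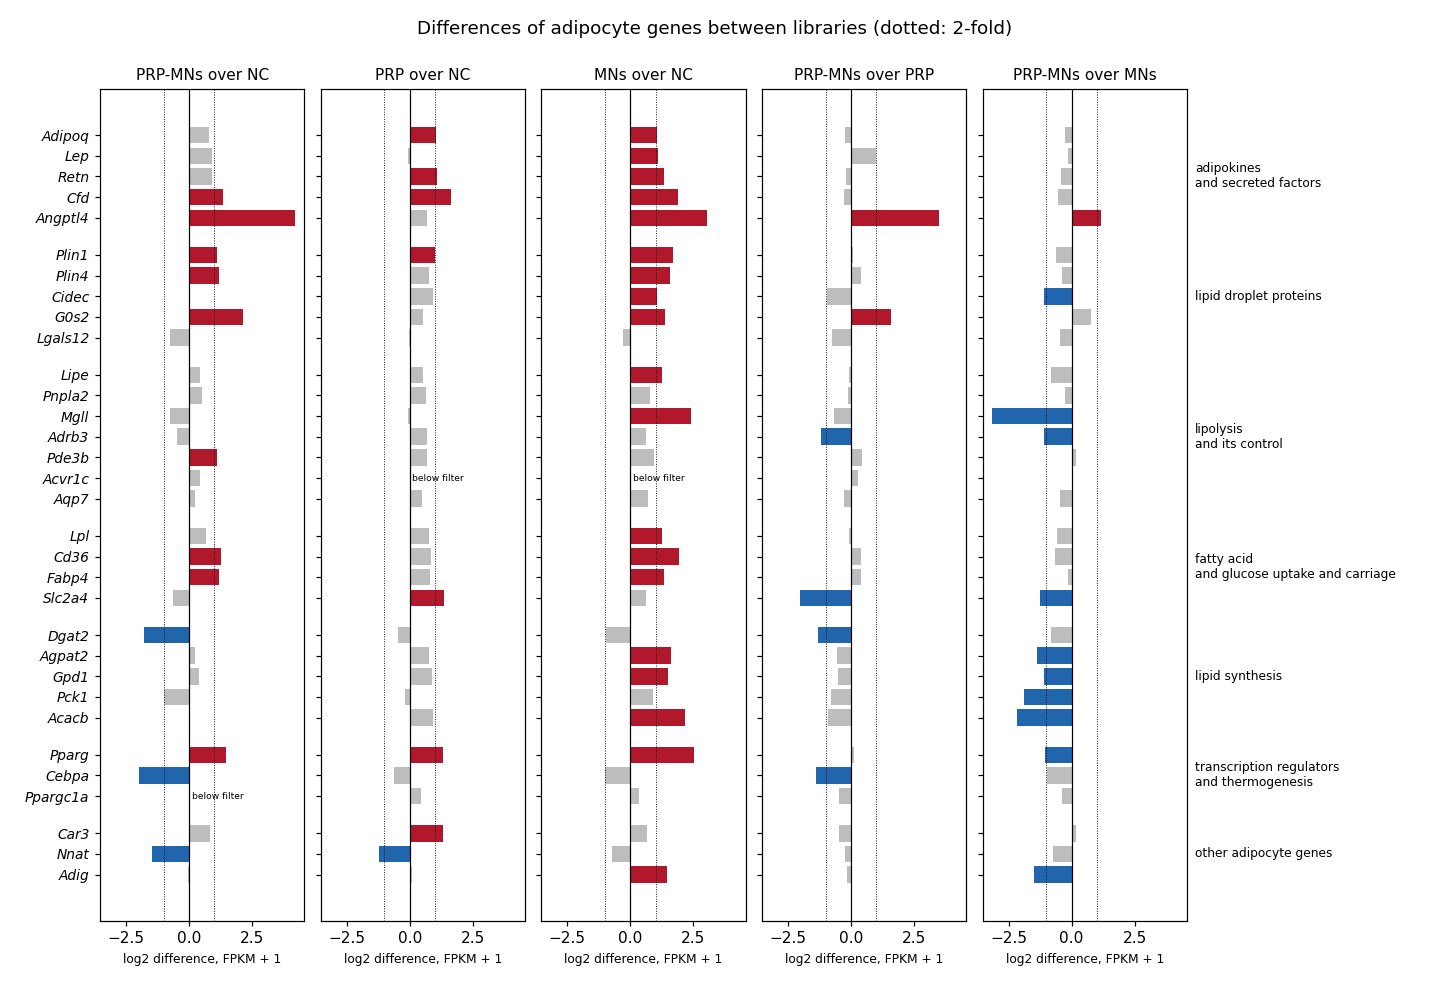
Log2 difference of FPKM + 1 of each adipocyte gene in 5 comparisons, with dotted lines at 2-fold, red bars at least 2-fold higher, blue bars at least 2-fold lower and grey bars between. MNs over NC has 19 red bars and PRP-MNs over MNs 10 blue bars, and Angptl4 is the longest bar of PRP-MNs over NC at 4.21.

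PRP-MNs was set against PRP to ask what the needles added to plasma. Of 32 measured genes, Angptl4 (3.50) and G0s2 (1.60) were at least 2-fold higher, where 9.54% of 13861 genes were. The 4 genes at least 2-fold lower were Slc2a4 (−2.00), Cebpa (−1.37), Dgat2 (−1.32) and Adrb3 (−1.19), where 7.5% of all genes were. Leptin differed by 0.99 and Cidec by −0.94, just inside the limit. After centring, Cidec (−1.02) and Acacb (−1.002) were also lower, and with a pseudocount of 0.1 leptin was higher by 1.30 and Pck1 (−1.15) and Acacb (−1.03) were lower, making 6 lower in either case. The median was −0.24 beside 0.08 for all genes.

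PRP-MNs was set against MNs to ask what the plasma added to needles. Only Angptl4 was at least 2-fold higher among 32 measured genes, by 1.17, where 7.16% of 13933 genes were. The 10 genes at least 2-fold lower were Mgll (−3.16), Acacb (−2.17), Pck1 (−1.89), Adig (−1.51), Agpat2 (−1.38), Slc2a4 (−1.26), Adrb3 (−1.10), Gpd1 (−1.10), Cidec (−1.07) and Pparg (−1.06), where 7.39% of all genes were. The median was −0.59 beside −0.02 for all genes. Secreted Adipoq, Retn and Cfd differed by less than 2-fold, between −0.53 and −0.26.

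The difference with plasma was read without needles, as PRP over NC, and with needles, as PRP-MNs over MNs, which share no library. Of 31 genes measured in both, 20 (64.5%) were higher with plasma in skin without needles and lower with plasma in skin with needles, where 25.1% of 12991 genes were. The 14 genes that were both lowest in NC and highest in MNs are among the 20. For those 14 the 2 directions follow from that order and add nothing to it. The 20 include Aqp7 and Ppargc1a, which passed the filter in 1 or both comparisons only through the library where they were higher, and Nnat passed likewise through MNs. Without these 3, the count was 18 of 28. A further 4 (Angptl4, G0s2, Pde3b and Car3) were higher in both and 7 (Lep, Lgals12, Mgll, Dgat2, Pck1, Cebpa and Nnat) were lower in both. At 2-fold, Pparg and Slc2a4 differed in opposite directions. With 1 library per group this difference between differences could not be tested.

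**Figure D3:**
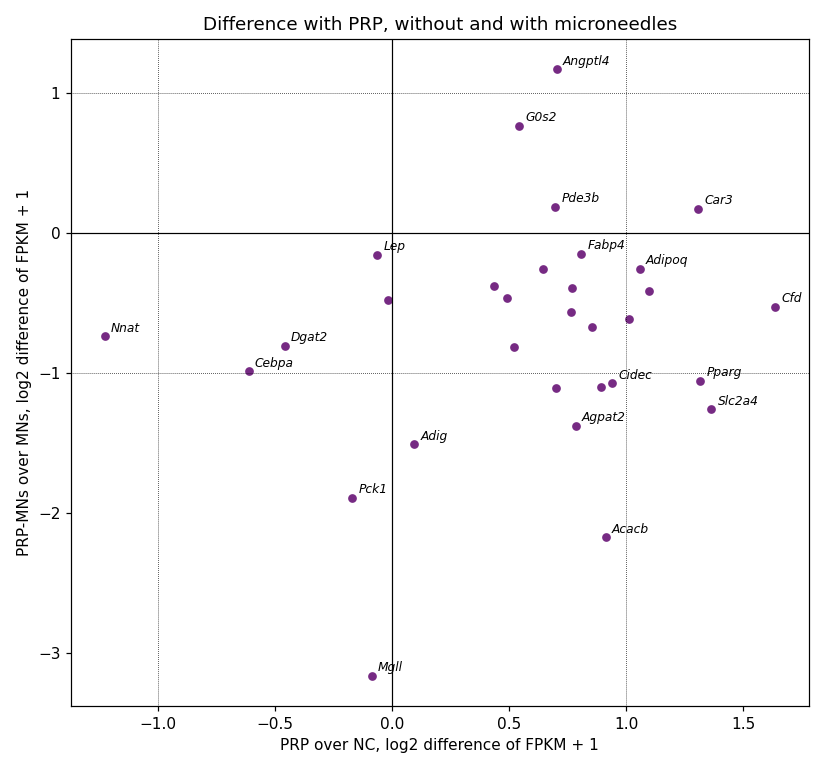
Log2 difference of FPKM + 1 with PRP in skin without microneedles (PRP over NC, x axis) and with microneedles (PRP-MNs over MNs, y axis), 1 point per adipocyte gene, with dotted lines at 2-fold. Of 31 points, 20 lie to the lower right of the origin, as do 25.1% of all genes measured in both, and Mgll is lowest at −3.16. Of the 20, 14 are the genes lowest in NC and highest in MNs, which must lie there.

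Fat-related genes outside the set followed the same libraries in part. Of 15 genes of fatty acid and lipid synthesis, 9 were at least 2-fold higher in MNs than in NC (median 1.33, where 15.7% of all genes were called), and 11 were at least 2-fold below MNs in PRP-MNs (median −1.43, where 7.39% were). Elovl6, which lengthens fatty acids, was at 8.53 FPKM in PRP-MNs skin, 31.8 FPKM in PRP skin and 302 FPKM in MNs skin, against 44.7 FPKM in NC skin, and fatty acid synthase (Fasn) at 20.4 FPKM in PRP-MNs skin, 46.5 FPKM in PRP skin and 116 FPKM in MNs skin, against 29.0 FPKM in NC skin. In PRP-MNs against NC, 2 of the 15 were at least 2-fold higher and 3 lower, where 17.6% and 11.5% of all genes were, with Thrsp, a gene of lipogenic tissue, at 3.43 FPKM in PRP-MNs skin against 23.4 FPKM in NC skin. These genes are used by sebaceous glands too, and the part of those glands was not tested.

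Of 12 measured droplet and lipolysis genes outside the set, PRP-MNs was at least 2-fold above NC for 2 and below it for 4, where 17.6% and 11.5% of all genes were. The 2 were Plin2 and Hilpda, and the 4 included Cidea (−1.90) and Pnpla3 (−1.76). The median of the 12 was −0.10, beside 0.14 for all genes. Plin2, the perilipin of macrophages and many other cells, was at 234 FPKM in PRP-MNs skin, 64.8 FPKM in PRP skin and 278 FPKM in MNs skin, against 21.7 FPKM in NC skin. Hilpda, a droplet protein induced by low oxygen that inhibits Pnpla2, was at 21.5 FPKM in PRP-MNs skin, 6.93 FPKM in PRP skin and 21.6 FPKM in MNs skin, against 6.71 FPKM in NC skin. As for Angptl4 and G0s2, both microneedle libraries were above both others for Plin2 and Hilpda.

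Most genes of adipokine and insulin receptors and signalling differed from NC by less than 2-fold on the FPKM + 1 scale. Of 12 such genes, 2 were at least 2-fold above NC in PRP-MNs, where 17.6% of all genes were, namely Cav1 and Cavin1, which build the caveolae of fat cells and vessels. Cav1 was at 233 FPKM in PRP-MNs skin against 78.2 FPKM in NC skin. In MNs against NC, 2 were at least 2-fold higher, where 15.7% of all genes were, the insulin receptor substrate Irs2 (1.60) and the leptin receptor Lepr (1.43). The adiponectin receptor gene Adipor2 differed by −0.77 in PRP-MNs against NC.

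Regulators and precursor genes of the fat lineage were mixed. Of 15 measured genes, 7 were at least 2-fold above NC in PRP-MNs and 4 below it, where 17.6% and 11.5% of all genes were. In MNs 8 were at least 2-fold higher and 1 lower, where 15.7% and 7.12% of all genes were. Pdgfra, a receptor of fat precursors and fibroblasts, was at 45.6 FPKM in PRP-MNs skin, 15.6 FPKM in PRP skin and 59.8 FPKM in MNs skin, against 4.75 FPKM in NC skin. Cebpd, an early adipogenic factor that inflammation also induces, was at 14.6 FPKM in PRP-MNs skin, 9.25 FPKM in PRP skin and 16.4 FPKM in MNs skin, against 3.06 FPKM in NC skin. Klf4, an epidermal factor as well, was at 44.1 FPKM in PRP-MNs skin against 256 FPKM in NC skin.

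**Figure D4:**
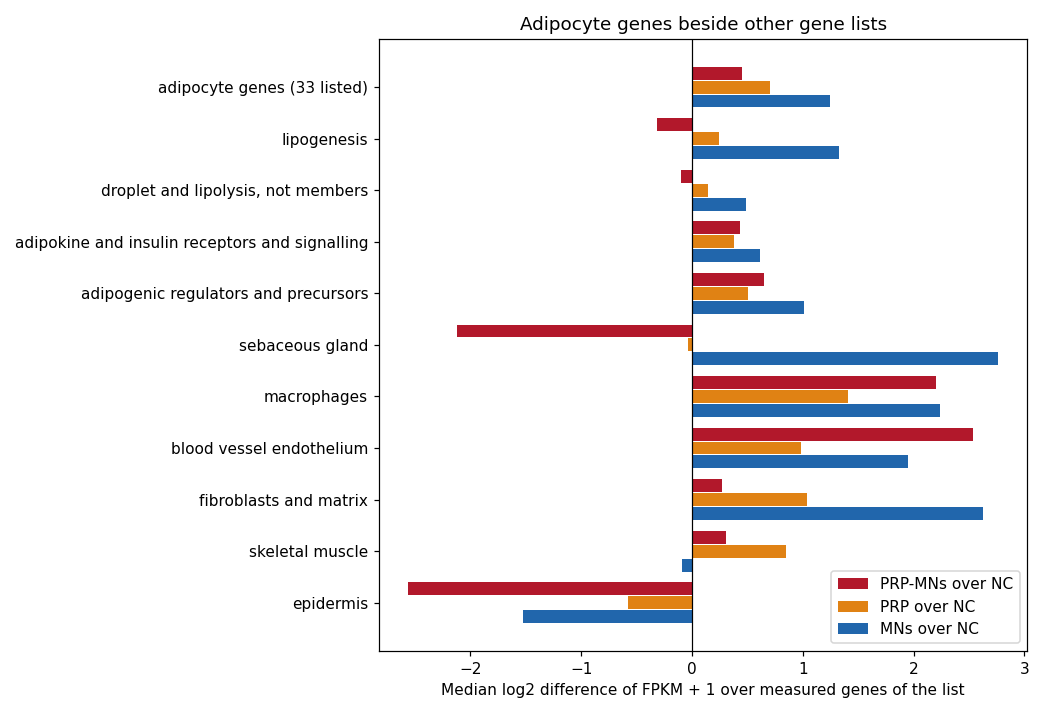
Median log2 difference of FPKM + 1 over the measured genes of each list for the libraries PRP-MNs, PRP and MNs over NC. The adipocyte genes lie at 0.45, 0.70 and 1.25, sebaceous gland genes at −2.13, −0.04 and 2.76, and epidermal genes at −2.56, −0.58 and −1.53.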

How the data were processed

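The NEBNext Ultra kit was used on 1 μg of RNA per skin sample, per the labels' protocols. The authors deposited FPKM per gene, 1 column per library. GRCm38 is the build named in the submitters' processing notes; aligner, quantification tool and annotation are not given in the sources used here. Coordinates and transcript lengths came from GENCODE release M21 (GRCm38).

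Fragment depth was estimated from the steps of low values of genes with 1 annotated transcript; at the best step 21.4% to 25.3% of values lay within 0.02 of a whole number, so whole fragments could not be recovered and no count test was run. The search ran from 5 to 25 M fragments; one up to 40 M, made first, peaked near 2 times these depths, with 25.2% to 29.0% whole. Differences, lists and promoter letters were computed in Python 3.11.15 with pandas 2.3.3 on the whole table, with a pseudocount of 1 FPKM, a filter of 1 FPKM in either library and a call at 2-fold, and the calculation was tested on simulated data. All 33 genes were named whatever their values, and of other lists at most the 4 largest differences or the first 3 markers. The members and lists were chosen with earlier results of these data known. Exons of 9 members (Plin4, Lipe, Mgll, Adrb3, Acvr1c, Agpat2, Gpd1, Cebpa and Nnat) overlap those of a gene on the other strand, so their levels are uncertain.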

Additional observations from a re-analysis of the deposited data

Results flagged for a closer look

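For 2 genes the difference with platelet-rich plasma was at least 2-fold in opposite directions without and with microneedles. Pparg was higher by 1.32 on the log2 scale in PRP than in NC and differed by −1.06 in PRP-MNs against MNs. It was lowest in NC and highest in MNs, so these directions, though not their size, follow from that order. Slc2a4 was higher by 1.36 in PRP than in NC and differed by −1.26 in PRP-MNs against MNs. Each value rests on 1 library per group, and the difference between the contrasts was not tested. Slc2a4 is also a muscle gene, and the summed muscle markers were 14464 FPKM in PRP against 8249 FPKM in NC, and 11290 FPKM in PRP-MNs against 7846 FPKM in MNs. The summed sebaceous markers were 315 FPKM in PRP against 347 FPKM in NC, and 138 FPKM in PRP-MNs against 1748 FPKM in MNs. The part of sebaceous glands in the levels of Pparg was not tested.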

How the results depend on the processing

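Counts and medians of the adipocyte genes were recomputed under 5 alternatives, a pseudocount of 0.1 FPKM, no filter, a filter at 5 FPKM, centring on the median of all genes and rescaling without mitochondrially encoded genes. No median changed sign. The number at least 2-fold lower in MNs than in NC, 0 as reported, was 1 with the pseudocount of 0.1 and 2 after centring, and that in PRP against NC, 1 as reported, was 0 with the filter at 5 FPKM, which removes Nnat. The other counts and medians moved by no more than 1.5 times. Rescaling shifted the median of all genes by 0.13 in PRP-MNs and 0.14 in MNs, each against NC. Of 157 single differences, 12 crossed 2-fold with the pseudocount of 0.1, 11 after centring and 6 after rescaling, in no case with a change of sign past 2-fold. Genes close to 2-fold, such as Plin1 in PRP against NC (1.01, or 0.97 after centring) and Adipoq in MNs against NC (1.06, or 0.90), rest on these choices. No paired analysis was possible because each group holds 1 library, and no library could be left out. Low genes (Ucp1, Acvr1c, Ppargc1a, Aqp7 and Nnat) are limited by depth.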
